A study of Drosophila melanogaster with 4 samples.

Results

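The broad H3K79me1 domains of the X chromosome were long stretches of chromatin called as 1 enriched region each in the combined list, for histone H3 monomethylated at lysine 79. They were chosen by position and width from the region list that combines both ChIP replicates. A domain had to lie on X, to start at or before 19400000 so that the centromere-proximal part was left out, to be called enriched and to be at least 8 kb wide. This gave 256 domains among the 1353 enriched regions of that part of X and the 7596 enriched regions of the whole list. The chromatin came from whole third-instar larvae, the last larval stage, of the wild type Drosophila melanogaster strain Oregon-R, fixed with formaldehyde. There were 2 ChIP libraries made with a rabbit antibody whose labelled target is H3K79me1, although the web page cited for it names the dimethylated form, and 2 input libraries. No treatment or mutant was part of the series. Whole larvae mix many tissues and the labels do not give their sex, so neither the cell types nor the number of X copies behind a domain was known. The labels leave it unsaid whether the replicates were taken from different animals.

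Lysine 79 lies on the folded core of histone H3 and not on its tail. It is methylated by Dot1, called grappa in flies, and the methylated forms are found over the bodies of transcribed genes. In male flies the dosage compensation complex binds transcribed genes of the X and raises their output, so that active chromatin on X and on the autosomes is often set side by side. The genes inside the domains were not analysed here, because the regions have coordinates of FlyBase release 5 and the gene table at hand those of release 6. For the same reason no DNA sequence of a domain is shown.

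The domains made up 18.9% of the enriched regions on that part of X and held 53.6% of the enriched length, 3.98 of 7.42 Mb. They covered 20.5% of that part of X. Since width was the criterion, these values describe the choice and are not tested. The median width was 12047.5 bp and the middle range, from the lower to the upper quartile, was 9.79 to 17.3 kb. Of the 256 domains, 186 were at least 10 kb wide, 87 at least 15 kb, 50 at least 20 kb, 15 at least 30 kb and 4 at least 50 kb. Just inside the limit lay X from 4058316 to 4066323, 8008 bp wide with a score of 1.01, followed by domains of 8103 and 8145 bp with scores of 0.99 and 0.86. Just outside it lay regions of 7996, 7971 and 7952 bp, whose scores of 1.51, 1.66 and 1.13 were above those of the domains just inside. The score is the value that the authors deposited for a region, and it is above 0 in enriched regions. Its scale is not given in the sources used here, so scores were compared as differences or ranks within a list. Where scores of different lists stand side by side, it is not known whether the lists share a scale.

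The widest domain, X from 1717108 to 1825183, spanned 108 kb with a score of 1.28, and its wide pieces lay at 1 end. In replicate 1 it was covered over 96.2% by 8 regions. The 4 at the lower coordinates were 1519 to 4254 bp wide with scores of 0.52 to 0.78, and the last, of 51104 bp, had a score of 1.56. Replicate 2 covered 97.6% of it by 9 regions. Here 6 regions of 1742 to 3404 bp with scores of 0.49 to 0.81 stood at the same end, and a region of 74742 bp with a score of 1.49 at the other. Both replicates thus broke up the same end of the domain and left the other end nearly whole. The breaks differed in length. In replicate 2 a region ended at 1725173 and the next began at 1725176, while the one after it ended at 1727779 and the next began at 1728670.

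The next widest domains were much shorter, and the replicates split them unevenly. X from 13776868 to 13832939, 56.1 kb with a score of 1.16, was 1 region in replicate 1 and 3 in replicate 2. X from 18865761 to 18920681, 54.9 kb with a score of 1.01, was 2 regions in each replicate. Some splits were only a few bases long: in replicate 2 the first of these regions ended at 18898101 and the second began at 18898107. X from 581920 to 635519, 53.6 kb with a score of 0.98, was 2 regions in replicate 1 and 7 in replicate 2. Its 2 regions in replicate 1 ended at 630898 and began again at 630909. These 3 differed in how far replicate 2 divided them, although it covered 94.1% to 99.8% of each. X from 19255499 to 19304195 (48.7 kb, score 1.19) was 1 region in replicate 1 and 2 in replicate 2, and X from 1462679 to 1511043 (48.4 kb, score 1.33) was 2 and 1. Among the 10 widest, the one least covered by a replicate was X from 11390295 to 11429924, 39.6 kb with a score of 0.88, which replicate 2 covered over 86.5% in 7 regions and replicate 1 over 98.5% in 2. The remaining 3 were X from 15606742 to 15645451 (38.7 kb, score 1.48), X from 1855964 to 1890745 (34.8 kb, score 1.22) and X from 1953821 to 1987117 (33.3 kb, score 1.33).

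**Figure D1:**
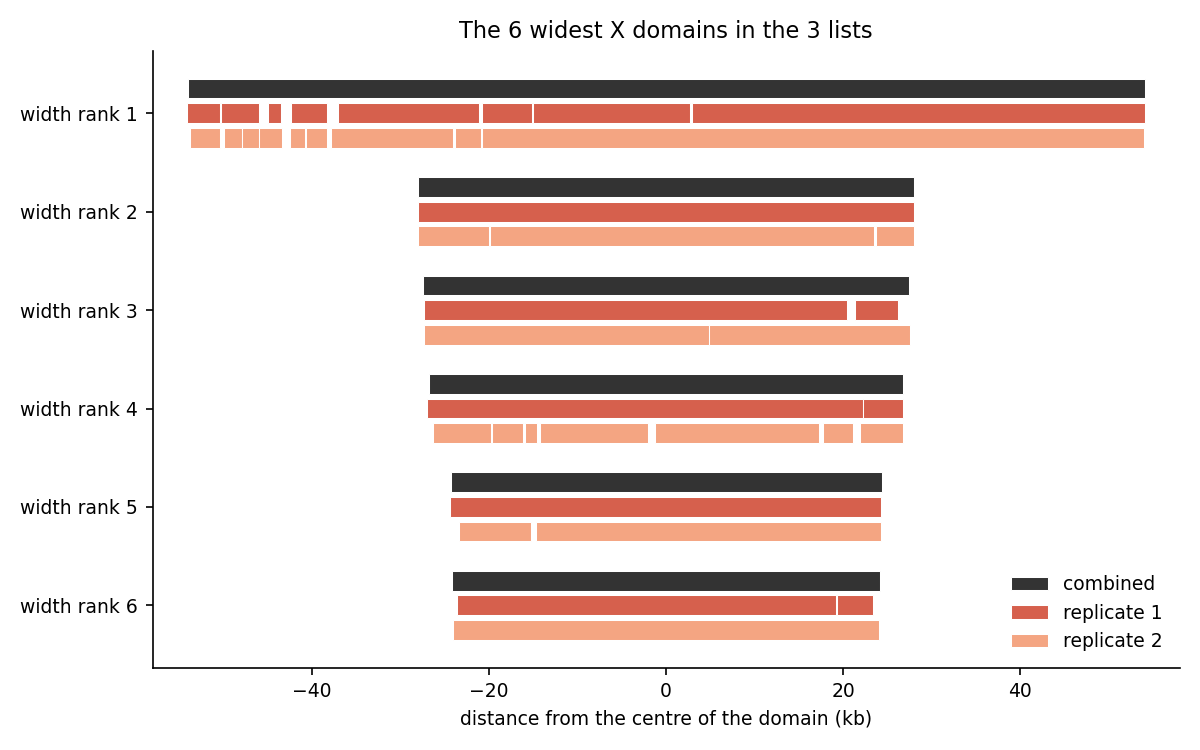
The 6 widest X domains drawn by distance from their centre in kb, with a row each for the combined list, replicate 1 and replicate 2. Bars are enriched regions and thin white outlines separate neighbours, so the narrowest gaps look wider than they are. The domain of 108 kb is broken into short regions at its left end in both replicates.

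All 256 domains scored above the median of the enriched regions of the combined list. Their scores ran from 0.52 to 1.84 with a median of 1.07 and quartiles of 0.89 and 1.24. The median domain stood at the percentile 87.9 of the whole list, 205 domains were above its percentile 75 and 110 above its percentile 90. A domain is defined by width, and in these lists the score comes from the same calls as the width, so a high rank was partly fixed by the choice.

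The highest scores named here belonged to domains of 9.03 to 15.5 kb, and the order of the first few differed between replicates. The domains of 9.03 and 9.71 kb were narrower than the lower quartile of width, 9792 bp. X from 11003353 to 11018854, 15.5 kb wide, had a score of 1.84 in the combined list, 1.96 in replicate 1 and 1.81 in replicate 2. The scores of X from 12579988 to 12589696, 9.71 kb wide, were 1.83, 1.92 and 1.82 in the same lists, and those of X from 10357649 to 10366676, 9.03 kb wide, were 1.78, 1.80 and 1.85. Each of these 3 was 1 region in both replicates. X from 18737489 to 18750653 (13.2 kb) had a score of 1.62 and X from 3849080 to 3863082 (14003 bp) one of 1.60, and each was 1 region in 1 replicate and 2 in the other.

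Some domains ranked high in both replicates by their widest piece and lower in the combined list by their whole score. X from 1904111 to 1917513 had widest pieces of 1.74 in replicate 1 and 1.68 in replicate 2, but the position 40 in the combined list. Another is described here, chosen after its values were seen. X from 6134719 to 6161393 is a domain of 26.7 kb with a combined score of 1.40, the position 26 among the domains. Its widest piece in replicate 2, from 6134668 to 6147853, had the highest score of all broad X regions of that list, 1.89. In replicate 1 the matching piece, from 6134882 to 6148279, had the second highest, 1.94. These pieces covered 49.2% and 50.2% of the domain, so the high score of either replicate belongs to the part at the lower coordinates.

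The lowest scores were 0.52 to 0.57, in domains of 8.20 to 9.76 kb that the replicates broke up or covered in part. X from 11571063 to 11580269 had the lowest, 0.52, and was 2 regions in each replicate. X from 3345494 to 3354324 (0.53), X from 17055884 to 17065424 (0.53), X from 13526230 to 13535991 (0.55) and X from 786794 to 794991 (0.57) were each covered less in replicate 2 than in replicate 1. Replicate 2 covered 46.0% to 73.5% of these 4 and replicate 1 85.6% to 97.6%.

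Width and score were only loosely related once domains had passed 8 kb. Spearman's rho over the 256 domains was 0.20 in the combined list. Under the same rule it was 0.10 over 227 regions of replicate 1 and 0.17 over 190 regions of replicate 2. The points share their libraries and are not independent. By width, the median score was 1.00 in 70 domains of 8 to 10 kb, 1.04 in 99 of 10 to 15 kb, 1.15 in 57 of 15 to 25 kb and 1.16 in 30 wider ones. The range was narrower at both ends among the widest, with scores of 0.52 to 1.83 in the first class and 0.81 to 1.49 in the last, which also has the fewest domains.

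**Figure D2:**
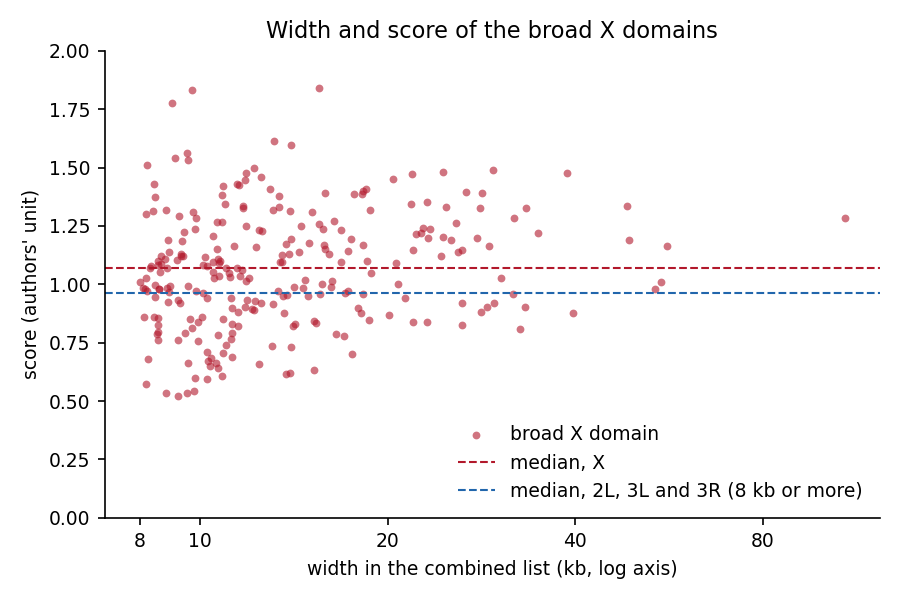
Score against width (kb, log axis) of the 256 broad X domains in the combined list, 1 point a domain. The dashed lines are the median score of the X domains, 1.07, and that of regions of at least 8 kb on 2L, 3L and 3R, 0.96; all domains with a score of 1.5 or more are under 20 kb wide.

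Nearly all of the sequence of a domain was also called in each replicate alone. The combined list was made from these libraries, so this is no independent check of it. The median domain was covered over 97.4% in replicate 1 and 95.4% in replicate 2. Replicate 1 covered at least 90% of 207 domains, replicate 2 of 174, and both did so in 157 domains. This was 61.3% of the domains, against 32.0% of all enriched regions of the combined list, most of which are narrower. Among regions of the same width on 2L, 3L and 3R it was 67.2% (648 of 965). Regions that overlap by any base were counted as covering, with no input list to set beside them.

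The domains least covered over both replicates had scores of 0.53 to 0.66. X from 12171172 to 12181781 was covered over 42.6% in replicate 1 and 79.8% in replicate 2. For X from 2847367 to 2857197 the shares were 57.8% and 73.5%, and for X from 4040387 to 4052810 they were 65.5% and 66.6%. In X from 3345494 to 3354324 they were 86.7% and 46.0%, and in X from 8575535 to 8585787 69.8% and 63.3%. Cover was under 80% for 13 domains in replicate 1 and for 38 in replicate 2, with 7 domains in both counts. Spearman's rho between the 2 shares over all domains was 0.15, with most values close to the upper limit. The scores behaved otherwise. Between the widest piece of each domain in replicate 1 and that in replicate 2 the rho was 0.84, a description over 256 domains of the same libraries. Of the 25 highest domains by that score, 17 were shared by the replicates, and 12 were also among the 25 highest of the combined list.

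**Figure D3:**
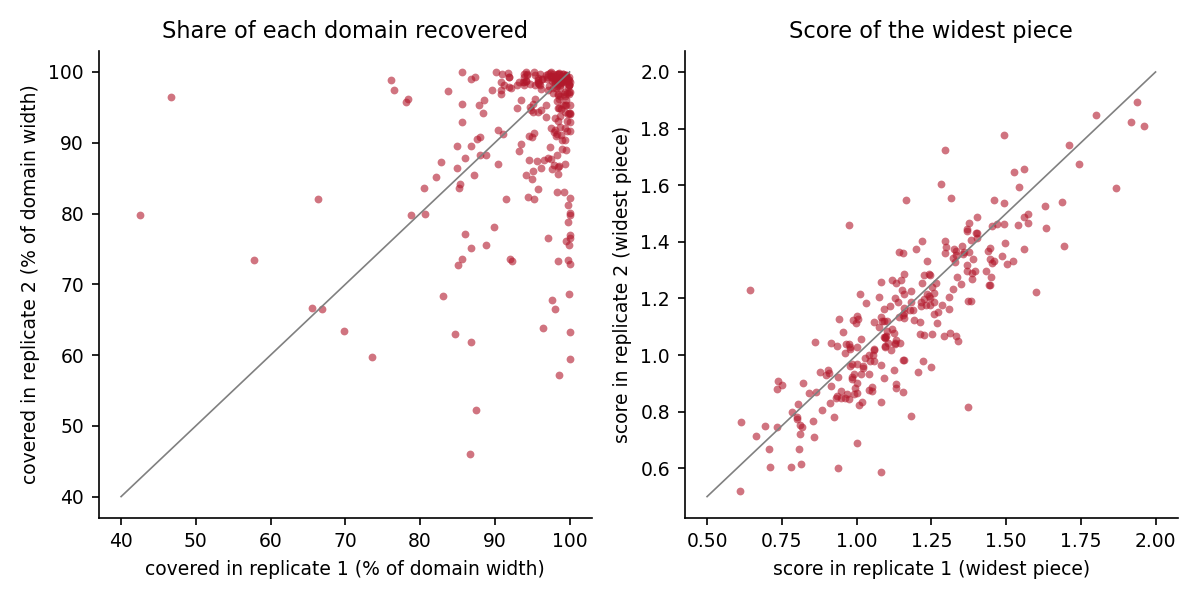
Left, share of each of the 256 X domains covered by regions of replicate 1 and of replicate 2, in percent of domain width. Right, score of the widest piece of each domain in the replicates, in the authors' unit; the grey lines mark equal values. Cover crowds at 90% and above with scattered low values in 1 replicate, while the scores lie along the line.

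A domain of the combined list was not always at least 8 kb wide in each replicate. Applied to the replicate lists, the same rule found 227 broad regions on X in replicate 1 and 190 in replicate 2, a mean of 208.5 ± 26.2 (SD, n = 2). All 190 of replicate 2 and 217 of those of replicate 1 overlapped a domain, and the other 10 overlapped narrower regions of the combined list. The widest piece of the domain was at least 8 kb wide in both replicates for 158 domains, in replicate 1 alone for 45, in replicate 2 alone for 16 and in neither for 37. The share in both was 61.7% on X and 66.1% among broad regions of 2L, 3L and 3R. The share in neither was 14.5% on X and 14.5% on those arms (140 of 965). The 158 had a median width of 15.2 kb and a median score of 1.17. The 37 measured 9.54 kb in the median and 13966 bp at most, with a median score of 0.76. These 37 domains are thus broad in the combined list alone, and the widest piece was under 8 kb in each replicate. Some were covered in part by a single region. X from 15406381 to 15414950 was 1 region in each replicate, with 78.8% covered in replicate 1 and 79.9% in replicate 2.

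Replicate 2 split the domains more than replicate 1. A domain was a single region in replicate 1 in 158 cases and in replicate 2 in 137 cases, with 107 being so in both. Replicate 2 had more pieces in 78 domains, replicate 1 in 35, and 143 had as many in each. Inside the domains there were 131 breaks between neighbouring pieces in replicate 1 and 199 in replicate 2, which is 3.29 and 5.00 breaks per 100 kb. The breaks were short, with medians of 287 and 340 bp and a longest of 2945 and 4985 bp. Most of them did not overlap a break of the other replicate. Sequence left uncovered at a domain edge was not counted as a break, and the overlap from position alone was not estimated. A break of the other replicate overlapped 49 of the 131 breaks of replicate 1 (37.4%) and 48 of the 199 of replicate 2 (24.1%). Broad regions of 2L, 3L and 3R gave 36.8% and 24.7%, with 3.30 and 4.90 breaks per 100 kb. In domains that were 1 region in both replicates the borders lay close together, at a median distance of 103 bp between starts and 164 bp between ends, and 90 and 83 of the 107 were within 500 bp.

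**Figure D4:**
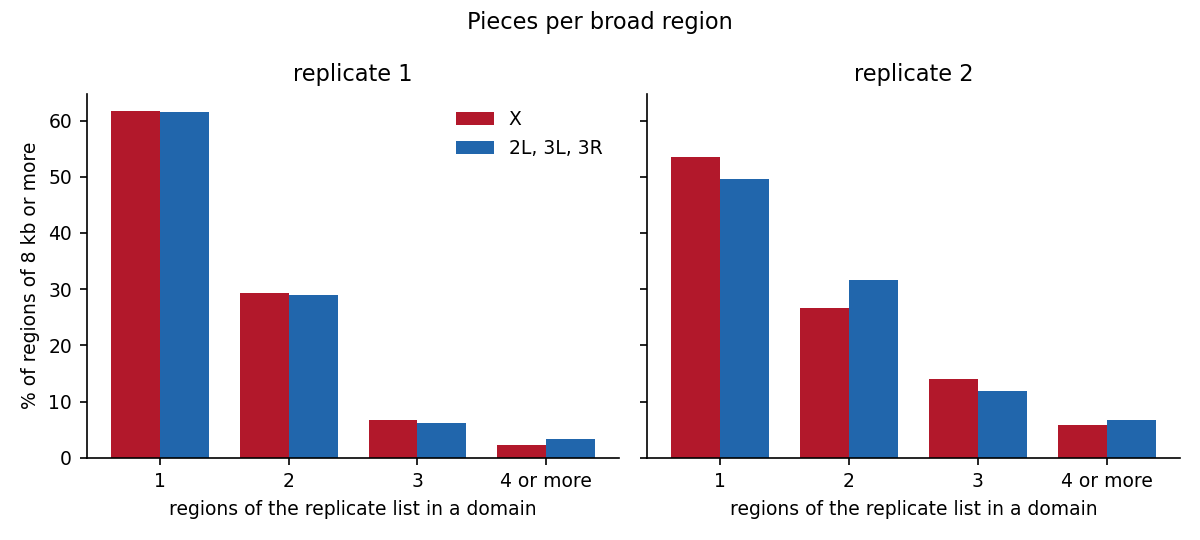
Percent of regions of at least 8 kb by the number of enriched regions of replicate 1 (left) or replicate 2 (right) that overlap them, for the 256 regions of X (red) and the 965 of 2L, 3L and 3R (blue). In replicate 1, 61.7% of the X domains and 61.5% of the autosome regions are 1 piece; in replicate 2 they are 53.5% and 49.6%.

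Along X the domains were spread unevenly, and the full window with the largest covered share lay near the tip. Over 20 windows, all of 1 Mb except the last of 0.4 Mb, the number of domains ran from 6 to 20. The median was 12.5 domains and the median cover 19.2%. The window from 1000001 to 2000000 had 19 domains that covered 52.5% of it, and it held 4 of the 10 widest. Broad regions of replicate 1 covered 41.4% of that window and those of replicate 2 44.1%. The last stretch examined, the 0.4 Mb from 19000001 to 19400000, was covered over 40.2%. The windows from 13000001 and from 6000001 followed with 30.6% and 29.8%. The least covered were those from 12000001 (7.13%, 6 domains), 7000001 (7.71%, 7 domains) and 14000001 (8.63%, 6 domains). Across the 20 windows the shares of broad regions of replicate 1 and replicate 2 had a Spearman rho of 0.94, given as a description. In the combined list the share in domains and the share in all enriched regions had a rho of 0.92. Domains are part of the enriched length, so these shares are not independent, and the uneven spread was not particular to domains.

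Windows with few domains were not always windows of low scores. The 6 domains of the window from 12000001 had a median score of 1.26, the highest of all windows together with that of the last stretch, and held 3 of the 25 highest scores. The 20 domains of the window from 13000001 had a median of 0.88, the lowest. The windows from 2000001 and from 6000001 held 4 each of the 25 highest scores. The longest stretch without a domain ran from 14137259 to 14698438, 561 kb, with 7 narrower enriched regions covering 5.05% of it. The next, from 14819485 to 15222337, measured 403 kb but held 28 narrower regions over 21.3% of its length. Stretches without a domain thus differed in how much narrower enrichment they held.

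Domains stood close to other enriched sequence. The median distance from a domain to the nearest enriched region was 389 bp in the combined list. Under the same rule it was 579 bp in replicate 1 and 636.5 bp in replicate 2. For 151 domains (59.0%) it was at most 500 bp, against 47.4% of all enriched regions of the combined list and 56.3% of the broad regions of 2L, 3L and 3R. Only 4 domains had no enriched region within 10 kb. Between neighbouring domains the median distance was 17.6 kb, with 32 pairs under 1 kb apart and 57 over 100 kb. Of the regions next to a domain on either side, 27.4% (140 of 511) were themselves domains, while domains were 18.9% of the regions on that part of X.

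Few of the short gaps beside a domain were bridged by a single region of a replicate. A gap that was not spanned need not be a gap in the replicate, since the sequence beside it may not have been called there. There were 157 gaps of at most 500 bp next to a domain, 23 of them between a pair of domains, with a median length of 197 bp. A region of replicate 1 spanned 15 of them and a region of replicate 2 spanned 3, so that neither spanned 140 (89.2%). On 2L, 3L and 3R neither spanned 454 of 534 (85.0%). The combined list comes from the same libraries, so these shares describe the calling.

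Joining enriched regions of X that were at most 1 kb apart put the 256 domains into 198 chains, of which 61 were a single region. There were 42 chains with 2 domains and 8 with 3 or more, which together held 108 domains. Chains of at least 50 kb numbered 18 and spanned 1.15 Mb. The second longest, X from 19249908 to 19332175, 82.3 kb, held domains of 48.7 and 27.8 kb with scores of 1.19 and 1.20. The third, X from 1111994 to 1182834, 70.8 kb, held 3 domains whose scores were 1.39, 1.14 and 0.73. X from 6134719 to 6195590, 60.9 kb, consisted of 3 domains with scores of 1.40, 1.43 and 1.47, and replicate 1 covered 95.6% and replicate 2 96.0% of it. Scores within a chain were therefore alike in some chains and spread in others. The chains were looked at after the values were seen.

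Broad regions were about as frequent on X as on the autosome arms 2L, 3L and 3R, which were used in full. There were 13.2 per Mb on X, 11.2 on 2L, 12.4 on 3L and 14.4 on 3R, and the ratio of X to the 3 arms together was 1.03 in the combined list. It was 1.07 in replicate 1 and 0.97 in replicate 2, a mean of 1.02 ± 0.069 (SD, n = 2), so the direction differed between the replicates. Broad regions covered 20.5% of X and 20.5% of the 3 arms together, with 17.8% on 2L and 23.3% on 3R.

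The X domains were somewhat narrower and scored higher than autosome regions of the same minimum width in each of the 3 lists. Median width was 12047.5 bp on X and 13109 bp on the 3 arms in the combined list, and the difference in the replicates was -610 ± 181 bp (SD, n = 2). On X 34.0% of the broad regions reached 15 kb, against 38.8% on the arms, and 53.6% of the enriched length lay in broad regions, against 57.8%. In the combined list the median score was 1.07 on X, 0.95 on 2L, 0.97 on 3L and 0.98 on 3R. It was 1.17 on X and 1.07 on the arms together in replicate 1, and 1.19 and 1.07 in replicate 2. The difference, X minus the arms, was 0.11 ± 0.014 (SD, n = 2), and the arms themselves differed by at most 0.032 in the combined list.

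The quartiles and the lowest score were higher on X, and the highest score was not above that of every arm. The lower quartile was 0.89 on X and 0.77 on the arms, and the lowest score 0.52 on X and 0.37 on the arms. The highest scores were 1.84 on X, 1.82 on 2L, 1.68 on 3L and 1.88 on 3R. Regions under 8 kb on X also scored higher, with a median of 0.50 on X and 0.42 on the arms in the combined list. That difference was 0.11 ± 0.0070 (SD, n = 2) in the replicates, as large as among broad regions, so it was not particular to the domains. No test was made, since the score comes from the same calls as the width and regions of a library are not replicates. Tag numbers on X and on the autosomes, the number of X copies in the larvae and the use of the input libraries were not at hand, and their part in the shift was not tested.

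**Figure D5:**
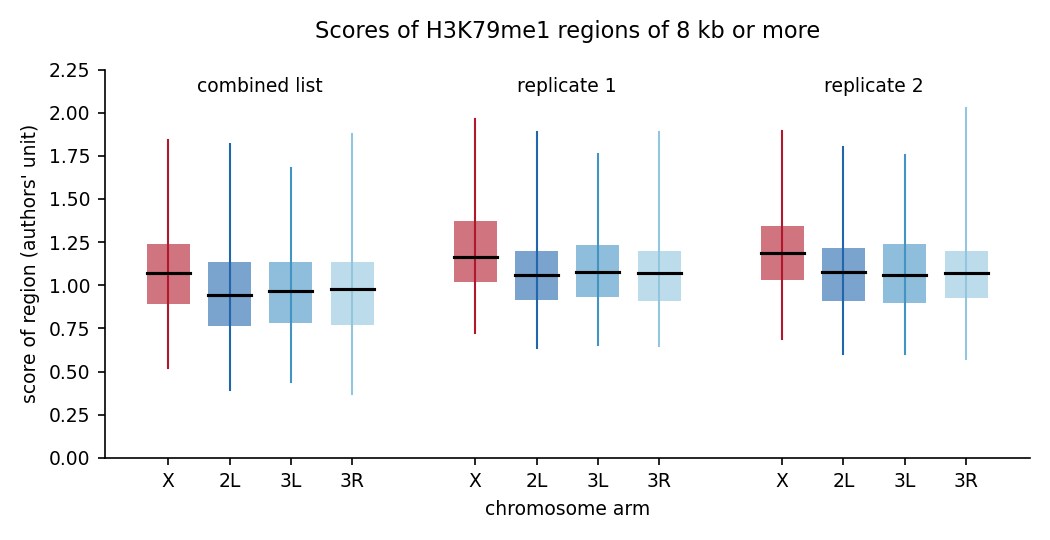
Scores, in the authors' unit, of enriched regions of at least 8 kb on X (start limit applied) and on 2L, 3L and 3R in the combined list and each replicate list. Boxes run from the lower to the upper quartile, black lines are medians and thin lines reach from the lowest to the highest score; X has the highest median in all 3 lists, and the highest single score lies on X in replicate 1 and on 3R in the others.

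The autosome regions named for comparison were the widest and the highest scoring of each arm. The widest X domain, at 108 kb, was longer than those of 3L (104 kb, score 0.84), 3R (71.9 kb, score 1.17) and 2L (67.9 kb, score 1.47). In replicate 2 the widest X region, of 74742 bp, was also longer than the widest of the arms, of 71797 bp. In replicate 1 it was shorter, with 56045 bp on X and 71705 bp on the arms. No region of depletion was called on X in any of the 3 lists. Beyond the start limit lay 22 further X regions of at least 8 kb, which were not counted, and 1 domain that starts before the limit runs across it.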

How the data were processed

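Chromatin of larvae was immunoprecipitated with an H3K79me1 antibody (2 ChIP and 2 input libraries). Bowtie 0.12.7 is named in the submitters' processing notes, and per the file headers the build is FlyBase release 5. The authors deposited region lists with 1 score per region, for each ChIP replicate and for both combined. The caller, its threshold, the meaning of the score, the use of the inputs and the way of combining replicates are not given in the sources used here. No read totals were at hand. Depth per library is thus unknown, and regions carry no counting error.

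Enriched regions (score above 0) were kept. Widths, gaps, covered base pairs and overlaps of at least 1 bp were computed with Python 3.11.15, numpy 2.4.6, pandas 2.3.3 and scipy 1.17.1, and plots with matplotlib 3.10.9. The interval functions were tested on simulated data. The domain rule, the comparisons and the alternatives were chosen with earlier results of these data known. Spreads are SDs of the 2 replicates, and no p-value was computed, since the members were chosen on these lists. Named regions were the 10 widest, the 5 highest and 5 lowest scores, the 3 on either side of the width limit, the 5 least covered, the one with most pieces, and the widest and highest scoring of each arm.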

Additional observations from a re-analysis of the deposited data

How the results depend on the processing

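Of 53 alternative values for 7 results, 29 stayed within the SD of the replicates (counts within 1.5 times), 24 moved further and 0 changed sign. Only the score difference and rho could change sign, since the other results are always positive. Some of the 29 were fixed in advance. The main median cover is the mean of both replicates, so the value of either replicate alone had to stay within their SD. All domains scored above the list median, so keeping regions at or above it could change neither their number nor rho. With a width minimum of 5 kb there were 461 domains holding 71.0% of the enriched X length, the X to autosome ratio per Mb was 1.13, the score difference 0.093 and rho 0.33. With 12 kb there were 128 domains holding 36.6%, and the ratio was 0.91, on the other side of 1, the score difference 0.13, the gap to the nearest enriched region 348 bp and rho 0.13. Merging regions within 1 kb gave a share of 80.4%, a ratio of 1.13, a median cover of 87.9%, a score difference of 0.071, a gap of 1927 bp and rho 0.28. Keeping regions at or above the median score gave a share of 63.4% and a gap of 724.5 bp. Counting the widest piece alone, the median cover was 87.7%, against 96.4% as the mean of both replicates. No value moved with the start limit dropped, the autosome arms trimmed or the score compared within width bins, although the ratio was 0.97 without the start limit.

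With 1 replicate left out, the number of domains was 190 to 227, the share 42.5% to 50.8%, the ratio 0.97 to 1.07, the median cover 95.4% to 97.4%, the score difference 0.096 to 0.12, the gap 579 to 636.5 bp and rho 0.096 to 0.17. Of these, the share moved without replicate 1, the gap without either and rho without replicate 2. The gap moved by over 1.5 times without replicate 1. Trimming the proximal 1 Mb of the autosome arms bears on 2 results alone. Its length was not matched to the part of X left out, so it does not compare like parts of X and the arms. No paired analysis was possible because region lists at hand cover the ChIP libraries alone, and no groups were tested against each other. The unknown depth limits statements on domains of low score.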
